A study of Rattus norvegicus with 418 samples.

Results

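Extracellular matrix and stellate cell genes were followed in the livers of rats given 1 of 8 hepatotoxicants. The list named 37 genes by symbol, on the ground of what they encode, though it was drawn up with earlier results of these data known: collagens, basement membrane components, matrix glycoproteins and proteoglycans, enzymes and inhibitors that remodel or crosslink matrix, and cytoskeletal and receptor markers of matrix-producing cells. Of these, 36 had a probe set under their own symbol among the 14217 genes of the array annotation, each read from the brightest of its probe sets on average, and Thbs1 had none. Each array held RNA of the liver's left lateral lobe of 1 rat, a male of the F344/N strain, 10 to 12 weeks old, that had gone without food for 12 to 18 h before exposure. Rats were killed 6, 24 or 48 h after the dose, and 318 dosed rats in 74 groups were compared with 100 vehicle rats in 24 groups, always within the same compound and time. 1,2-Dichlorobenzene and 1,4-dichlorobenzene were given at 15, 150 and 1500 mg/kg, bromobenzene at 25, 75 and 250 mg/kg, N-nitrosomorpholine at 10, 50 and 300 mg/kg and thioacetamide at 15, 50 and 150 mg/kg. Monocrotaline was given at 10 and 50 mg/kg at every time, at 300 mg/kg at 6 h only and, as labelled, at 30 mg/kg at 24 h only. These 6 compounds and their controls were given by gavage in corn oil. Galactosamine (25, 100 and 400 mg/kg) and diquat dibromide (5, 10, 20 and 25 mg/kg) and their controls were given by I.P. injection in PBS, so compound, route and vehicle cannot be told apart between these sets. Most groups held 4 rats and the diquat dibromide groups and their vehicle groups 6, but thioacetamide vehicle at 6 h and 1,2-dichlorobenzene 1500 mg/kg at 48 h held 2 each. Each rat also carried a liver necrosis score from 0 to 4. All vehicle rats scored 0 except 1 diquat dibromide vehicle rat at each time, which scored 1 at 6 h, 1 at 24 h and 2 at 48 h.

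The extracellular matrix of the liver is laid down mainly by hepatic stellate cells, which sit between hepatocytes and the sinusoidal endothelium, store vitamin A when quiescent and turn into contractile, collagen-secreting myofibroblasts after injury, and by portal fibroblasts. Fibrillar collagens are secreted as procollagens, trimmed and crosslinked outside the cell, whereas type IV collagen, laminins and nidogen form basement membranes. Several genes of the list are also made by other cells of the liver, such as Vim by leukocytes, endothelium and fibroblasts, and Fn1 and Col18a1 by hepatocytes.

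The promoter windows printed here show members on which the results turn: a type I collagen chain that changed in both directions, an intermediate filament gene that rose after most compounds, and the type IV collagen pair, whose starts lie 77 bases apart and head to head so that their windows share 176 bases. They were taken from RefSeq on build GRCr8, each with 250 bases before the annotated start and 300 in all, and are printed 5′ to 3′ on the strand of the gene. Col1a2 lies at chr4:33518307-33518606 on the plus strand, Vim at chr17:81577011-81577310 on the plus strand, Col4a1 at chr16:84885347-84885646 on the plus strand and Col4a2 at chr16:84885471-84885770 on the minus strand. Capitals mark, on either strand, the TATA box TATAAA, the CCAAT box and the GC box GGGCGG.
Col1a2: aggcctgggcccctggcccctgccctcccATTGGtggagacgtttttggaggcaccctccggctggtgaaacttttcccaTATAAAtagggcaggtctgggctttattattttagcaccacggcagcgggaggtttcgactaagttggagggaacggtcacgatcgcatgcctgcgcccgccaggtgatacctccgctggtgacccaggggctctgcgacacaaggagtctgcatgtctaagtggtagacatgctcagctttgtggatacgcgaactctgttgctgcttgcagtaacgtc
Vim: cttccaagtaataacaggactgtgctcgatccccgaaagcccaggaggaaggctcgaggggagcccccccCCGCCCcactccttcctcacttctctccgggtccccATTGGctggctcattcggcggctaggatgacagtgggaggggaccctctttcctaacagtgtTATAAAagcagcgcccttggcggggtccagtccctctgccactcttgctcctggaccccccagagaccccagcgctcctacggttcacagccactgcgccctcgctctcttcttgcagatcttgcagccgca
Col4a1: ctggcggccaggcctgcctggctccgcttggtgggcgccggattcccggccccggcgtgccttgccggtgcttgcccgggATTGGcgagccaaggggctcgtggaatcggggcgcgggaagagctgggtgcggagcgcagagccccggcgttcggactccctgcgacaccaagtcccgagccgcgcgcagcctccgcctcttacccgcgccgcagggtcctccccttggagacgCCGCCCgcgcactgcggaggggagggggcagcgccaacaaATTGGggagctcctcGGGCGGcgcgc
Col4a2: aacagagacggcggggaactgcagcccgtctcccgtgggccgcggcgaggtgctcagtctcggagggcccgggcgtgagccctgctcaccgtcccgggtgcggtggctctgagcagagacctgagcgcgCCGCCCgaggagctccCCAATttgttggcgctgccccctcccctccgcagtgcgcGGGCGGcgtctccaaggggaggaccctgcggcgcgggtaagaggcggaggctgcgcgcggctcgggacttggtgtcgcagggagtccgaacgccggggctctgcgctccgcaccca
TATAAA stood at -170 from the annotated start of Col1a2 and at -82 from that of Vim, and was in neither type IV window. CCAAT on the opposite strand stood at -221 from the start of Col1a2. Over all rat promoters of the same length in that table, TATAAA was in 14.2%, CCAAT in 37.5% and GGGCGG in 33.1%. Of the 25 windows found for 24 members, 4, 9 and 15 held them, respectively. A CArG box (CC, 6 bases of A or T, GG), the letters bound by serum response factor, was in 1.64% of all promoters and in 0 of the 25 windows. These matches are descriptions of letters in short windows.

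Signals are given as log2(signal + 16) of MAS5 signals scaled to the same trimmed mean on every array, and a change is the difference of group means on that scale ± the standard error of the fit, so the change of a dim gene is understated. A gene was called at an adjusted p under 0.05 in limma, adjusted over all 14217 genes of a comparison. Because these are pieces of whole liver, fewer cells of a type and less RNA per cell cannot be told apart. In vehicle rats the summed signal of 11 hepatocyte markers ran from 347000 to 669000, against 13700 to 26600 for 9 macrophage markers and 142 to 1630 for 5 neutrophil markers. Group means of Col3a1 in the vehicle rats of the 8 compounds ran from 11.99 to 12.23 at 6 h, from 12.03 to 12.38 at 24 h and from 12.30 to 12.67 at 48 h. Those of Col1a1 ran more widely, from 6.91 to 8.37, 7.57 to 8.38 and 7.68 to 8.85. The members Postn, Tnc and Loxl1 lay under a signal of 16 on 57.7%, 53.1% and 35.2% of arrays, so their low values are poorly measured.

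Over the 24 comparisons of the highest dose with vehicle, 864 member values were tested. Of these, 279 were called higher and 114 lower. The share of all genes called higher ran from 1.09% (galactosamine, 6 h) to 36.1% (thioacetamide, 48 h) in these comparisons. The share called lower ran from 3.08% (diquat dibromide, 48 h) to 22.5% (thioacetamide, 24 h). Col4a1 and Vim rose in 15 and 14 comparisons and fell in 0. Dcn, the collagen-binding proteoglycan decorin, rose in 14 and fell in 2, and Lamc1, the laminin gamma chain, rose in 13 and fell in 2. Vcan, the large proteoglycan versican, rose in 12, and Des, the muscle-type intermediate filament of stellate cells, in 11, and neither fell. The opposite balance was seen for Col18a1, which encodes the collagen that releases endostatin and rose in 1 and fell in 15, for Fn1, the plasma and tissue glycoprotein fibronectin, with 1 and 14, and for Col14a1, a fibril-associated collagen, with 2 and 11. Several Fn1 calls depended on the scaling. Its rise, after bromobenzene at 24 h, was at 0.11 (adjusted p = 0.532) after centring arrays on their median. Quantile normalization took, among others, the calls of its falls at 48 h after 1,2-dichlorobenzene (-0.06) and thioacetamide (0.04). It also turned the fall at 48 h after galactosamine into a rise (0.38). Col3a1 rose in 4 and fell in 9, Sparc in 8 and 6, Bgn in 7 and 6 and Col1a2 in 7 and 5. Thbs2 was called in 0 of the 24. The heat map of these changes shows the fall of fibrillar collagens under both dichlorobenzenes and the near uniform rise at 48 h after galactosamine and thioacetamide.

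**Figure D1:**
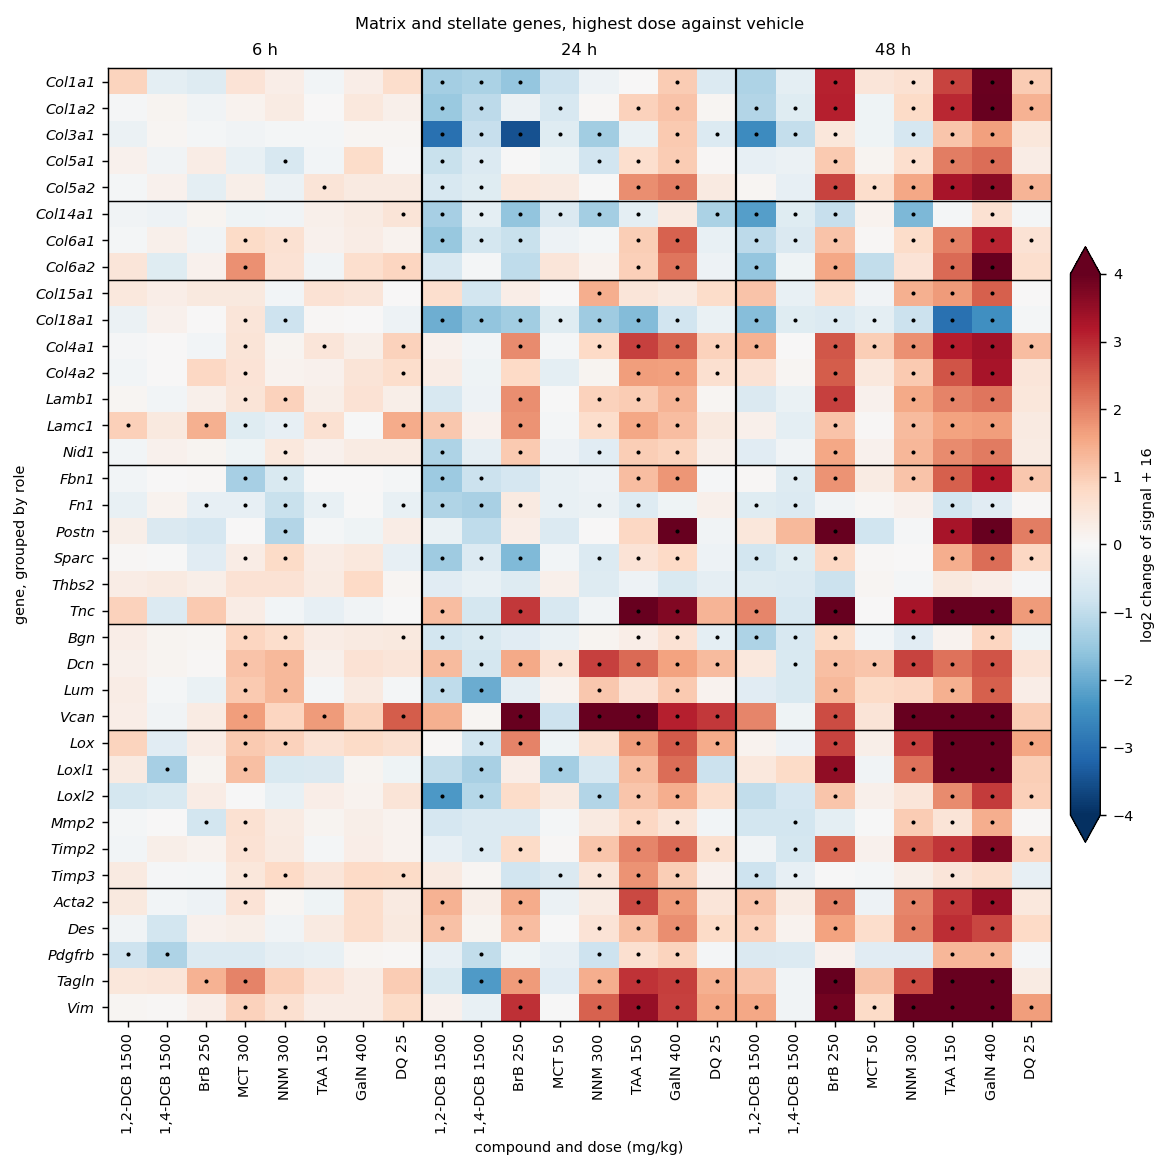
Log2 change against vehicle of the same time for each of the 36 members (lines, grouped by role) in the highest-dose comparisons (columns; 1,2-DCB and 1,4-DCB, the dichlorobenzenes; BrB, bromobenzene; MCT, monocrotaline; NNM, N-nitrosomorpholine; TAA, thioacetamide; GalN, galactosamine; DQ, diquat dibromide), with called values marked. Galactosamine at 48 h has 32 members higher and 2 lower, and 1,4-dichlorobenzene at 24 h has 0 higher and 20 lower.

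**Figure D2:**
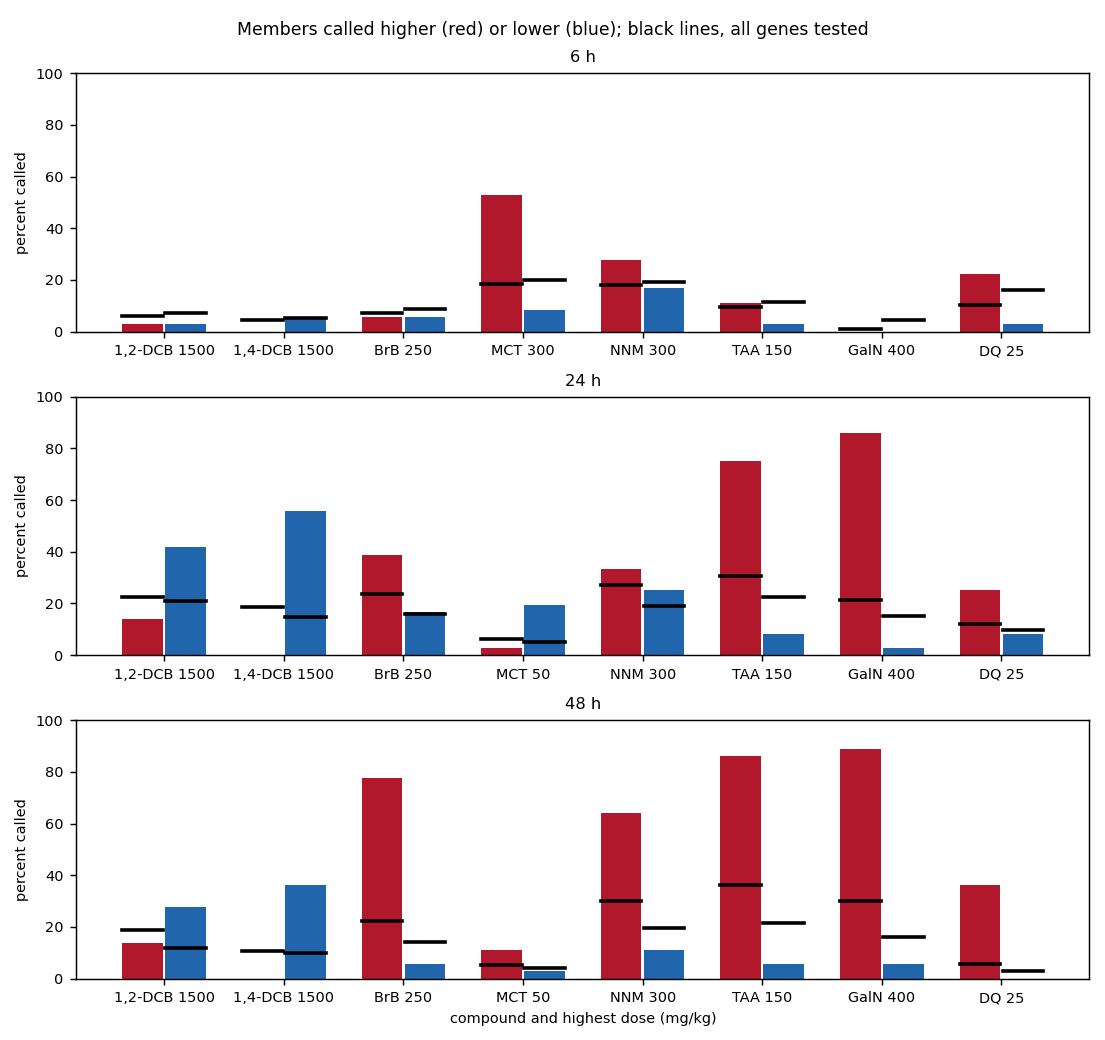
Percent of the 36 members called higher (red bars) and lower (blue bars) at the highest dose of each compound at 6, 24 and 48 h, with the percent of all genes called in that direction as black lines and the compounds abbreviated as in the heat map. The members called at 6 h run from 0 after galactosamine to 22 after monocrotaline 300 mg/kg, and at 48 h from 5 after monocrotaline 50 mg/kg to 34 after galactosamine.

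After bromobenzene, Col1a1 and Col3a1 were low at 24 h and high at 48 h. At 250 mg/kg and 24 h, Col3a1, a major chain of reticular fibres, read 8.79, 8.65, 8.27 and 9.15 in the dosed rats, against 12.11, 12.25, 12.18 and 12.21 in the vehicle rats. All dosed rats lay far below all vehicle rats, and the fall of 11.1-fold (-3.47 ± 0.15, adjusted p = 7.77e-24) was the largest fall of any member at this dose and time. At 48 h the dosed rats read 12.68, 12.93, 12.95 and 13.02 and the vehicle rats 12.47, 12.49, 12.37 and 12.43. The order was now reversed, again without overlap, at 0.46 ± 0.15 (adjusted p = 0.0153). The difference between the 2 changes was 3.93 ± 0.21 (adjusted p = 3.65e-18). With hybridisation day as a fixed term in a fit of all arrays, Col3a1 was -3.41 at 24 h and 0.59 at 48 h, both still called, and the difference was 3.99.

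Col1a1, the first chain of type I collagen, took the same course with more spread. At 24 h the dosed rats read 6.28, 6.29, 4.63 and 7.39 and the vehicle rats 7.78, 7.17, 7.99 and 7.89, so 1 dosed rat overlapped the controls (-1.56 ± 0.38, adjusted p = 0.000687). At 48 h the dosed rats read 10.41, 11.47, 10.64 and 10.52 and the vehicle rats 7.35, 7.98, 7.15 and 8.23, a separation with no overlap (3.08 ± 0.38, adjusted p = 4.58e-09). Within the 1 day that held 2 dosed and 4 vehicle arrays of 24 h, Col1a1 was at -1.69 with adjusted p = 0.0839. Col6a1, a chain of the beaded filaments of type VI collagen, moved from -0.88 to 1.14, and Sparc, a collagen-binding glycoprotein, from -1.77 to 0.84. Dosed and vehicle rats did not overlap for Col6a1 or Sparc at either time. These were the 4 members called lower at 24 h and higher at 48 h. Col14a1 was lower at both times, at -1.59 ± 0.17 and -0.91 ± 0.17.

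**Figure D3:**
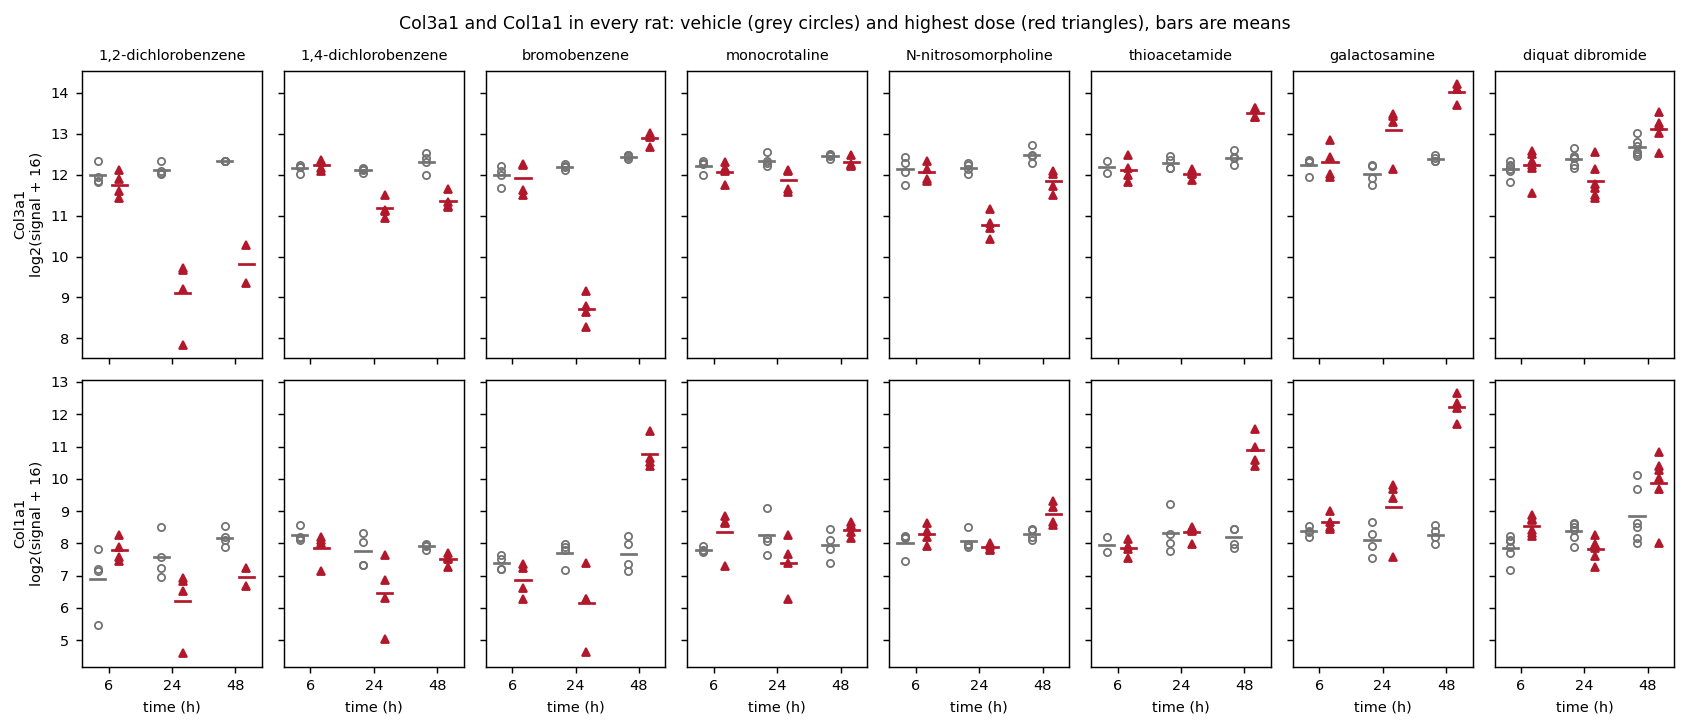
Log2(signal + 16) of Col1a1 and Col3a1 in each rat at the highest dose and in its vehicle group, by compound and time (grey circles, vehicle rats; red triangles, dosed rats; bars, group means). The bromobenzene means lie below vehicle at 24 h and above it at 48 h for both genes, though dosed and vehicle rats overlap for Col1a1 at 24 h. The 1,2-dichlorobenzene rats lie below for Col3a1 at 24 h and 48 h, and galactosamine rats lie above at 48 h.

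Other members did not share the 24 h fall. At that time 14 members were higher and 6 lower after bromobenzene 250 mg/kg, against 23.5% and 16% of all genes. Centring arrays on their median turned this into 13 and 11, and quantile normalization into 14 and 10. Vcan read 10.72, 10.41, 10.52 and 10.76 against 4.64, 4.62, 5.29 and 5.20, a 50.8-fold rise with no overlap (5.67 ± 0.48). Vim read 13.05, 13.00, 12.90 and 11.98 against 9.87, 9.87, 9.81 and 9.77 (2.91 ± 0.24, adjusted p = 2.4e-14). Every dosed rat again lay above every vehicle rat. Acta2, the smooth muscle actin of activated stellate cells, rose by 1.47 ± 0.28, and Tagln, its actin-binding partner transgelin, by 1.69 ± 0.42. Of the 5 fibrillar collagens, Col1a1 and Col3a1 were lower at that time and the other 3 were not called. Lox, which crosslinks collagen and elastin, rose by 1.99 ± 0.39. By 48 h, 28 members were higher and 2 lower, against 22.1% and 14% of all genes, with a member median of 1.56 against 0.04. All 5 fibrillar collagens, all 4 proteoglycans and 4 of 6 remodelling genes were then higher. Tnc, the injury-associated glycoprotein tenascin C, rose most at 48 h, from 4.61, 4.85, 6.02 and 5.24 to 9.25, 10.11, 9.18 and 9.41 (4.31 ± 0.46), and Vcan had receded to 2.61 ± 0.48 (48 h minus 24 h -3.05 ± 0.68).

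Genes outside the members that act on collagen also changed. After bromobenzene 250 mg/kg, 7 of 13 measured processing genes were higher and 2 lower at 24 h. P4ha1, a prolyl hydroxylase subunit, rose by 2.51 ± 0.22 and Plod2, a lysyl hydroxylase, by 2.23 ± 0.34, whereas Bmp1, which trims procollagen, fell (-1.34 ± 0.20). At 48 h 10 were higher and 1 lower, with Serpinh1, the collagen chaperone, at 2.52 ± 0.18. Of 9 activation ligands, receptors and targets, Ccn2, a matricellular growth factor, was at 3.31 ± 0.35 at 24 h and Tgfbi, a secreted adhesion protein, at -1.95 ± 0.11. The others of that list are not given here. Of 12 quiescent stellate cell markers, 2 were higher and 5 lower at 24 h, with Colec11 at -2.41 ± 0.12, Pdgfra at -1.34 ± 0.20 and Rgs5 at 1.37 ± 0.21. Markers of other cells moved in the same livers. The 6 vascular smooth muscle genes summed to 955 to 1340 in dosed and 3180 to 3330 in vehicle rats at 24 h, with Mylk (-2.03 ± 0.14) and Smtn (-0.61 ± 0.20) lower. Of 7 sinusoidal endothelium markers 1 was higher and 3 lower, of 5 cholangiocyte markers 3 were higher, and of 4 mesothelium markers 0 were called. All 5 neutrophil markers were higher (31100 to 50500 against 391 to 626 in sum), and of 9 macrophage markers 4 were higher and 2 lower (70300 to 93100 against 18400 to 20700). All 4 bromobenzene rats at 24 h and all 4 at 48 h had necrosis scores of 4. Their part in the result was not tested.

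At 6 h after 250 mg/kg bromobenzene had raised Lamc1 (1.42) and Tagln (1.40) and lowered Mmp2 (-0.74) and Fn1 (-0.32), 2 members each against 7.35% and 8.63% of all genes. Centring gave 2 and 0 and quantile normalization 2 and 1, and 2 were called without dosed rat 2 and 1 without vehicle rat 3 or 4. At the lower doses Col3a1 also fell at 24 h, Col1a1 was not called lower, and 0 members were called at 48 h. At 75 mg/kg 1 member was higher and 8 lower at 24 h (10.4% and 7.99% of all genes), and at 25 mg/kg 0 and 5 (2.79% and 2.73%), Col3a1 being at -0.84 and -0.64. The member median was -0.25 and -0.31. At 6 h, 75 mg/kg gave 2 and 4 (8.09% and 8.6%).

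Fibrillar collagens fell after both dichlorobenzene isomers, and 0 of the 5 were called higher at 48 h after either. All 5 fibrillar collagens were lower at 24 h after 1500 mg/kg of either isomer. After 1,2-dichlorobenzene, Col3a1 read 9.67, 7.85, 9.20 and 9.72 against 12.01, 12.03, 12.09 and 12.32 at 24 h (-3.00 ± 0.24, adjusted p = 4.54e-14), and 9.35 and 10.29 in the 2 dosed rats at 48 h against 12.32, 12.32, 12.34 and 12.33 (-2.51 ± 0.30, adjusted p = 4.68e-09). Dosed and vehicle rats did not overlap at either time, and at 24 h all 8 arrays were hybridised on 1 day. The 48 h minus 24 h difference was 0.50 ± 0.38 (adjusted p = 0.468). At 150 mg/kg Col3a1 also fell at 24 h, by 1.39. Over all members, 5 were higher and 15 lower at 24 h, against 22.3% and 20.9% of all genes, with a median of -0.64 against 0.09. At 48 h 5 were higher and 10 lower (18.6% and 11.8% of all genes), and at 6 h 1 and 1 (5.9% and 7.36%), which became 2 and 2 without dosed rat 2 and 1 and 0 without dosed rat 1 or 4 or vehicle rat 1, 2 or 4. At 24 h Dcn rose, from 9.22, 9.38, 9.97 and 9.55 to 10.90, 10.89, 10.76 and 10.61 (1.26 ± 0.21), without overlap. Col18a1 fell at both times (-1.96 ± 0.15 and -1.70 ± 0.19).

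One rat of the 1,2-dichlorobenzene 1500 mg/kg group at 24 h stood apart. Vim read 9.23, 12.47, 9.23 and 9.54 and Vcan 6.19, 10.30, 5.26 and 6.17, the high value in both being rat 2, the only rat of the 4 with a necrosis score of 4 (the others scored 0, 1 and 1). Its Col3a1 and Col1a1, at 7.85 and 4.59, were also the lowest. Without this rat the count was 4 higher and 18 lower, Col3a1 was at -2.58 (adjusted p = 3.99e-15), and Col1a1, at -1.36 ± 0.50 with it (adjusted p = 0.0252), was at -0.82 (adjusted p = 0.212). With only the groups compared in the fit, Col1a1 also lost its call (adjusted p = 0.0655). Leaving out vehicle rat 4 also took the call of Col1a1 (-1.05, adjusted p = 0.131). In the group of 4, neutrophil markers summed to 259 to 40500 against 225 to 329 in vehicle rats. Vascular smooth muscle markers summed to 597 to 1350 against 2910 to 3350, with 2 of 6 called lower and 0 higher. The part of these cells in the result was not tested.

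After 1,4-dichlorobenzene 1500 mg/kg the change was one-sided: 0 members were higher and 20 lower at 24 h (18.6% and 14.7% of all genes) and 0 and 13 at 48 h (10.6% and 9.87%). The median member was at -0.59 at 24 h and -0.39 at 48 h, against 0.00 for all genes at both times. At 6 h 0 were higher and 2 lower (4.45% and 5.32%), which centring turned into 4 and 2, and 1 was called without dosed rat 1, 2 or 4 or vehicle rat 2. Col3a1 fell by 0.93 ± 0.09 at 24 h and by 0.95 ± 0.09 at 48 h, and Col1a1 by 1.28 ± 0.31 at 24 h (adjusted p = 0.000729), with -0.40 at 48 h (adjusted p = 0.414). Tagln fell most at 24 h, to 5.88, 4.76, 4.77 and 6.32 from 7.20, 8.17, 7.63 and 7.76 (-2.26 ± 0.45), with no overlap. Acta2, at 0.24 ± 0.28, was not called. Of the 6 smooth muscle markers 3 were lower (1390 to 2350 against 3000 to 3400 in sum), as were 4 of 9 macrophage markers, and 0 of 5 neutrophil markers were called. All 4 rats scored 1 for necrosis at 24 h and all 4 scored 0 at 48 h. Without vehicle rat 1, 8 members were lower at 48 h, and with day as a fixed term 10 members were called at 24 h and 3 at 48 h, with Col3a1 still called at -0.91 and -1.05. Col1a1 at 24 h lost its call with day in the fit (-1.42, adjusted p = 0.106) and with only the groups compared (adjusted p = 0.057).

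The isomers differ only in where the second chlorine sits on the benzene ring and were given at matched doses and times, so their changes could be compared in 9 tests. At 1500 mg/kg and 24 h, 5 members had the higher and 5 the lower change after 1,2-dichlorobenzene, against 8.32% and 12.9% of all genes. Centring gave 2 and 7, and without the dosed rats numbered 2, among them the rat that stood apart, the counts were 1 and 5. With day as a fixed term the counts were 2 and 2, and Col3a1 (-2.09), Col14a1 and Dcn (2.19) were still called. Dcn differed by 1.95 ± 0.29 (adjusted p = 2.03e-07), with a rise after the 1,2 isomer and a fall after the 1,4 isomer, and Tnc by 1.93 ± 0.62. Acta2, Des and Lamc1 followed at 1.15, 1.07 and 0.90. Col3a1 differed by -2.07 ± 0.26 (adjusted p = 1.79e-09), the deeper fall after the 1,2 isomer, followed by Col14a1 (-0.92), Sparc (-0.88), Nid1 (-0.85) and Col6a1 (-0.84). At 48 h 4 had the higher and 4 the lower change (11.5% and 8.66% of all genes), 3 and 6 after centring or quantile normalization. They were 0 and 2 with day as a fixed term, Col3a1 (-1.93) and Col14a1, so most of the differences between the isomers at 1500 mg/kg were not called once day was in the fit. Col4a1 differed by 1.40 ± 0.27 and Vim by 1.69, and Col14a1 by -1.71 ± 0.26 and Col3a1 by -1.56 ± 0.29.

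At 150 mg/kg and 24 h, Vcan had the higher change after 1,2-dichlorobenzene (2.27) and 4 members the lower (8.65% and 6.58% of all genes): Col3a1 by -1.36, Col18a1 by -1.25, Col14a1 by -1.13 and Col6a1 by -0.72. Centring gave 0 and 6, quantile normalization 0 and 4, and day as a fixed term 0 and 3, without Col6a1. At 150 mg/kg and 6 h, Col18a1 (-0.77) and Fn1 (-0.49) differed (4.28% and 4.92% of all genes), and 0 members did so without the vehicle rats numbered 4 and 1 without the dosed rats numbered 1 or 4 or the vehicle rats numbered 1, 2 or 3. In the other 5 comparisons 0 of 36 members were called by limma (1 to 6 had an unadjusted p under 0.05), but at 150 mg/kg and 48 h leaving out the dosed rats numbered 2 gave 4 and the vehicle rats numbered 4 gave 1, and at 1500 mg/kg and 6 h leaving out the dosed rats numbered 3 gave 2. Col1a1 was not called in any of the 9. A p that misses the threshold leaves the size of such differences unknown within their intervals, for Col1a1 at 1500 mg/kg and 24 h -1.27 to 1.12.

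**Figure D4:**
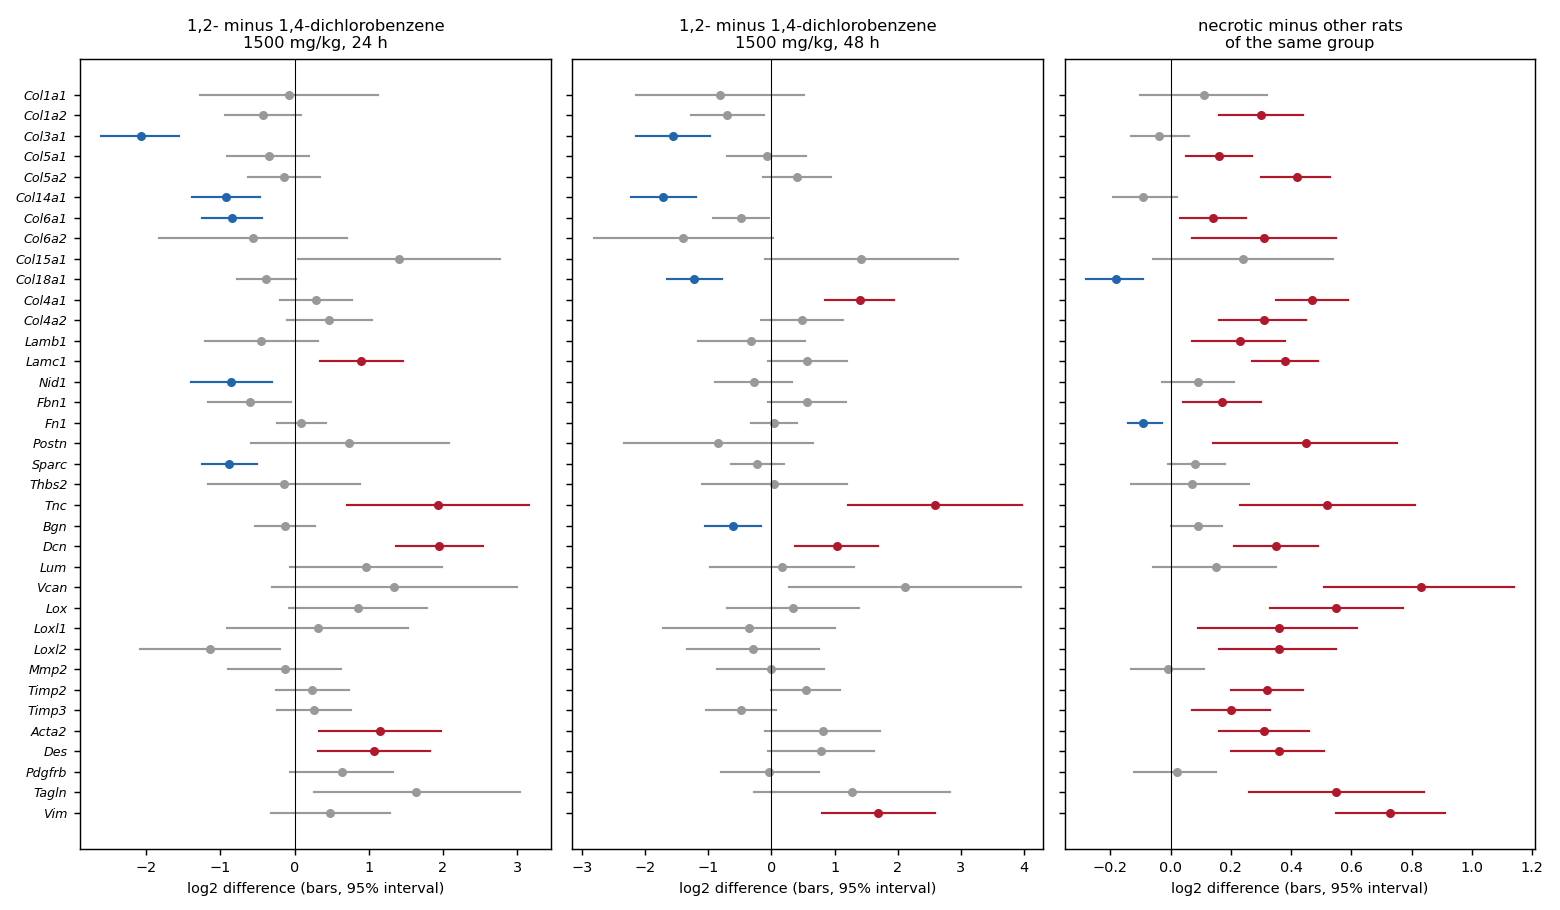
Log2 differences of the 36 members with the intervals of the fit (points and bars; red, called higher; blue, called lower; grey, not called): the change after 1,2-dichlorobenzene minus that after 1,4-dichlorobenzene at 1500 mg/kg and 24 h (left) and 48 h (middle), and necrotic minus other rats of the same group (right, on its own scale). Col3a1 lies at -2.07 and -1.56 in the isomer panels, and Vcan and Vim lie farthest to the right in the necrosis panel, at 0.83 and 0.73.

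Most members rose after thioacetamide, Col1a1 and Col3a1 being called at 48 h and not at 24 h. At 150 mg/kg, 4 members were higher and 1 lower at 6 h (9.43% and 11.6% of all genes; 4 and 0 after centring, 2 called without dosed rat 2), 27 and 3 at 24 h (30.5% and 22.5%) and 31 and 2 at 48 h (36.1% and 21.4%). Leaving out vehicle rat 1 or 2 gave 3 at 6 h, where it left 1 vehicle array, assumed to vary like the other groups. The member median was 1.00 at 24 h and 2.12 at 48 h, against 0.04 and 0.11 for all genes. At 48 h Col1a1 read 10.40, 11.53, 10.58 and 11.00 against 7.98, 8.44, 7.87 and 8.45 (2.69 ± 0.31, adjusted p = 5.03e-10), and Col3a1 13.40, 13.63, 13.40 and 13.62 against 12.60, 12.23, 12.43 and 12.40 (1.10 ± 0.13, adjusted p = 9.66e-10). Both genes separated all dosed from all vehicle rats at 48 h. At 24 h they had been at 0.01 and -0.27 ± 0.13 (adjusted p = 0.0847) and were not called, at a time when all 5 cytoskeletal and receptor members were higher. At 50 mg/kg the course crossed zero: Col3a1 went from -0.72 to 1.09 and Col14a1 from -0.90 to 0.38, called at both times, and at this dose 16 members were higher and 3 lower at 24 h (28.3% and 18.3% of all genes) and 30 and 2 at 48 h (30.4% and 16.5%).

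The largest rise after thioacetamide 150 mg/kg at 48 h was that of Tnc, which read 10.95, 10.17, 10.93 and 11.28 against 4.46, 4.87, 6.29 and 4.64 (5.77 ± 0.42). Tagln rose by 4.71 ± 0.39, Lox by 4.08 ± 0.27, Acta2 by 2.82 ± 0.22 and Col4a1, the type IV collagen chain of basement membranes, by 3.15 ± 0.14. For each of these 5 genes all dosed rats lay above all vehicle rats. Col18a1 fell at 48 h to 9.34, 9.52, 9.26 and 9.23 from 12.43, 12.41, 12.24 and 12.26, or 7.99-fold (-3.00 ± 0.11, adjusted p = 2.16e-25). Fn1 read 14.04, 14.03, 14.01 and 14.10 against 14.88, 14.65, 14.86 and 14.76, a change of -0.74 ± 0.07, but at 0.04 (adjusted p = 0.672) after quantile normalization. Serpinh1 (2.60 ± 0.16) and Ccn2 (3.97 ± 0.36) rose with the collagens, as did 9 of 12 quiescent stellate cell markers, Rgs5 and Cygb among them (2.14 ± 0.17 and 1.68 ± 0.21). The other collagen processing and activation genes are not given here for this group. All 11 hepatocyte markers were lower (187000 to 207000 against 487000 to 544000 in sum) and 7 of 9 macrophage markers higher (92800 to 99200 against 15700 to 20100), and rats scored 3 or 4 for necrosis. Their part in the result was not tested. Every thioacetamide group lay within 1 hybridisation day and the vehicle rats on other days than the dosed, so within this compound day and dose cannot be told apart. With day as a fixed term across all compounds, 18 members were called at 24 h and 30 at 48 h, Col1a1 at 2.01 and Col3a1 at 0.93 among the latter.

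Galactosamine, which depletes uridine nucleotides in hepatocytes, gave 1 called member value over the doses of 25 and 100 mg/kg and the 3 times. At 400 mg/kg, 0 members were called by limma at 6 h (1.09% of all genes higher and 4.46% lower; 4 members at an unadjusted p under 0.05; 3 called without dosed rat 4 and 1 without dosed rat 2), 31 were higher and 1 lower at 24 h (21.4% and 15%) and 32 higher and 2 lower at 48 h (30.2% and 16.2%). The member median was 1.40 at 24 h and 2.73 at 48 h, against 0.10 and 0.14. At 48 h, 31 members had all dosed rats above all vehicle rats, and at 24 h 5. Such separation was not counted over all genes, so these counts have no background. Col1a1 rose 15.5-fold at 48 h, to 12.67, 12.20, 11.70 and 12.34 from 8.19, 7.97, 8.56 and 8.38 (3.95 ± 0.33, adjusted p = 2.93e-13). Col3a1 rose to 14.22, 13.69, 14.10 and 14.09 from 12.41, 12.33, 12.48 and 12.32 (1.64 ± 0.20, adjusted p = 4.48e-09). Neither gene fell at 24 h in this compound: Col3a1 was at 1.06 ± 0.20 and Col1a1 at 1.01 ± 0.33. Postn, the fibroblast glycoprotein periostin, showed the largest rise, to 10.70, 12.23, 10.41 and 10.60 from 4.93, 4.25, 6.03 and 6.00 (5.68 ± 0.56). Tagln (5.44 ± 0.67), Lox (4.65 ± 0.51), Vim (4.61 ± 0.48), Timp2, an inhibitor of matrix metalloproteinases (3.69 ± 0.37), and Acta2 (3.45 ± 0.35) rose with it.

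The 24 h galactosamine group held 3 rats with raised members and 1 without. Vim read 13.98, 9.51, 13.84 and 14.16 against 10.36, 9.78, 9.97 and 10.45 in vehicle rats, Timp2 12.06, 8.70, 11.75 and 12.32, and Col3a1 13.44, 12.14, 13.28 and 13.49 against 12.24, 11.91, 11.75 and 12.20. Rat 2, the low one in each, had a necrosis score of 0 and the others 3, 3 and 2. Without it 32 members were higher and 1 lower, with Vim at 3.85 and Col1a1 at 1.52. When only the 2 groups compared entered the fit, with the spread estimated from these rats alone, 0 members were called at 24 h. What took the calls was not tested. Leaving out dosed rat 1, 3 or 4 or vehicle rat 3 took the call of Col1a1 at 24 h, and leaving out dosed rat 1, 3 or 4 or vehicle rat 1, 2 or 3 that of Col18a1. At 48 h, rat 2 had the highest Timp2 (13.56, the others 12.37 to 12.69) and the lowest Col18a1 (8.29, the others 9.94 to 10.80) of its group. Col18a1 in vehicle rats read 12.25, 12.39, 12.34 and 12.29, all above the dosed rats (-2.46 ± 0.28). Fn1 was at -0.45 and, after quantile normalization, at 0.38 (adjusted p = 0.0056).

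At 48 h after galactosamine, 9 of 13 collagen processing genes were higher and 2 lower, with Serpinh1 at 3.04 ± 0.31 and Plod2 at 3.21 ± 0.42. Of 9 activation genes 7 were higher and 1 lower, among them Tgfbr1, a receptor for transforming growth factor beta (1.60 ± 0.20), Ltbp1, which holds its latent ligands in the matrix (2.31 ± 0.30), and Ccn2 (3.70 ± 0.62). Of 12 quiescent stellate cell markers, 9 were higher and 1 lower, with Lrat, the vitamin A esterifying enzyme, at 1.52 ± 0.23 and Cygb at 2.55 ± 0.29. All 11 hepatocyte markers were lower (106000 to 228000 against 473000 to 497000 in sum) and 6 of 9 macrophage markers higher (92500 to 103000 against 18300 to 20600). The smooth muscle markers summed to 3780 to 4340 against 3640 to 4420, and Actg2 and Cnn1 were higher. The part of these cells in the result was not tested. Dosed and vehicle arrays never shared a day with 2 arrays of each. With day as a fixed term, 19 members were called at 48 h, Col1a1 at 2.87 and Col3a1 at 1.17 among them.

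N-Nitrosomorpholine, a hepatocarcinogenic nitrosamine, lowered Col3a1 at 24 h and 48 h while most other members were higher by 48 h. At 300 mg/kg, 10 members were higher and 6 lower at 6 h (18.2% and 19.1% of all genes; 11 and 4 after centring), 12 and 9 at 24 h (27.2% and 18.9%) and 23 and 4 at 48 h (30.1% and 19.4%). In the fit with day 10 were called at 6 h, 10 at 24 h and 26 at 48 h. The median at 48 h was 1.05 against 0.07. Col3a1 read 10.69, 11.17, 10.81 and 10.43 against 12.23, 12.14, 12.29 and 12.02 at 24 h (-1.39 ± 0.14, adjusted p = 5.2e-12), with no overlap, and was at -0.66 ± 0.14 at 48 h (adjusted p = 6.46e-05). Its change differed between 24 h and 48 h by 0.74 ± 0.19 (adjusted p = 0.00355; 0.71 with adjusted p = 0.198 with day as a fixed term). Col1a1 was at 0.62 ± 0.26 at 48 h (adjusted p = 0.048), a call that was lost on leaving out dosed rat 2 or 3 or any vehicle rat. Vcan rose 115-fold by 48 h, to 12.33, 12.31, 12.60 and 12.62 from 5.37, 5.82, 5.50 and 5.79 (6.85 ± 0.55, adjusted p = 8.79e-15). Vim rose to 14.22, 14.24, 14.24 and 14.25 from 10.18, 10.03, 9.88 and 10.07 (4.20 ± 0.21, adjusted p = 3.04e-22). All 8 arrays of the 48 h comparison were hybridised on 1 day. Dcn was already high at 24 h, at 11.91, 11.76, 11.87 and 12.06 against 9.18, 8.98, 9.46 and 9.08 (2.72 ± 0.20, adjusted p = 5.61e-16).

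Some members turned direction after N-nitrosomorpholine. Nid1, which links laminin to type IV collagen, went from -0.45 at 24 h to 1.34 at 48 h and Col5a1, a regulatory fibril collagen, from -0.76 to 0.66, called at both times. Lamc1 had gone from -0.32 at 6 h to 0.70 at 24 h. Col4a1 rose at both later times, by 0.79 ± 0.13 and 1.82 ± 0.13, and 6 of 7 basement membrane members were higher at 48 h. Col14a1 fell to 7.72, 8.02, 8.28 and 8.03 at 48 h from 9.79, 9.62, 9.94 and 9.88 (-1.80 ± 0.14), without overlap, the largest fall of any member there. Neutrophil markers, all 5 higher, summed to 37900 to 47800 at 48 h against 269 to 466, macrophage markers (7 higher and 2 lower) to 96400 to 103000 against 17600 to 19100, and 8 of 11 hepatocyte markers were lower. All 4 rats scored 4 for necrosis. Among the 12 quiescent stellate cell markers Lrat, at -2.01 ± 0.21, and Colec11, at -0.80 ± 0.11, were lower. Among the 9 activation genes Ccn2 (3.79 ± 0.28) was higher. The other genes of these lists are not given here, and no direction of either list is drawn. The part of these cells in the result was not tested.

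Monocrotaline, a pyrrolizidine alkaloid that injures sinusoidal endothelium, had 19 members higher and 3 lower at 300 mg/kg and 6 h (18.3% and 20.1% of all genes; member median 0.50 against 0.08). Leaving out 1 rat gave 16 to 23 called, and with day as a fixed term this comparison could not be fitted. At 50 mg/kg and 6 h, 3 were higher and 6 lower (17.5% and 17.7%). Tagln rose to 8.29, 8.41, 9.00 and 7.65 from 6.90, 6.82, 7.08 and 4.65 after 300 mg/kg (1.98 ± 0.46), with no overlap. Fbn1, the microfibril protein fibrillin, fell to 6.79, 6.97, 7.58 and 7.34 from 8.53, 8.17, 8.71 and 8.56 (-1.32 ± 0.17), also with no overlap, and after 50 mg/kg by 1.16 ± 0.17. Of the 5 fibrillar collagens, 0 were called after 300 mg/kg at 6 h. At 50 mg/kg the later times were nearly quiet, with 1 higher and 7 lower at 24 h (6.07% and 5.18%) and 4 and 1 at 48 h (5.11% and 4.18%). Centring gave 2 and 1 at 24 h and 4 and 0 at 48 h, and quantile normalization 0 and 5 at 24 h. The fit with day called 0 members by limma at 24 h and 3 at 48 h. Leaving out dosed rat 1 left 1 member at 24 h, dosed rat 2 left 4 and vehicle rat 2 left 4. Col3a1 at 24 h (-0.48 ± 0.13, adjusted p = 0.0118) lost its call without any of these 3 rats and with day as a fixed term.

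The group labelled 30 mg/kg at 24 h changed more than that labelled 50 mg/kg at the same time, with 15 members higher and 5 lower (25.8% and 17.8% of all genes). Vim read 13.00, 13.01, 12.73 and 13.45 in it and 9.95, 10.31, 10.07 and 9.63 in the group labelled 50 mg/kg, against 9.90, 9.99, 9.91 and 10.24 in vehicle rats. The first group lay above both others, which overlapped. Col14a1 read 7.64, 7.22, 7.56 and 8.05 against 9.61, 9.66, 9.57 and 9.87 (-2.06 ± 0.17), and Col3a1 was at -1.22 ± 0.13 (adjusted p = 1.93e-10). All 4 rats labelled 30 mg/kg scored 4 for necrosis, and those labelled 50 mg/kg scored 0 or 1. The order of the labels and that of the scores do not run the same way, the labels were kept, and no dose order is drawn for monocrotaline.

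Diquat dibromide, a redox-cycling herbicide, gave smaller and more scattered changes. At 25 mg/kg, 8 members were higher and 1 lower at 6 h (10.3% and 16.1% of all genes), 9 and 3 at 24 h (12% and 9.64%) and 13 and 0 at 48 h (5.49% and 3.08%), where the median member was at 0.52 against 0.06. Quantile normalization gave 8 and 0 at 6 h and centring 13 and 1 at 24 h, but with day as a fixed term 0 members were called by limma at 24 h. At 6 h and 48 h that fit could not be made. Col3a1 was lower at 24 h (-0.54 ± 0.16, adjusted p = 0.0108), a call lost with day as a fixed term (-0.24, adjusted p = 0.801) and after centring (-0.42, adjusted p = 0.0653), and not called at 48 h (0.45 ± 0.16, adjusted p = 0.0699), and the 2 changes differed by 0.99 ± 0.23 (adjusted p = 0.00471). Col1a1 at 48 h read 10.02, 10.40, 10.82, 9.68, 10.27 and 8.02 in dosed and 10.11, 8.63, 9.68, 8.01, 8.51 and 8.17 in vehicle rats, which overlapped (1.02 ± 0.33, adjusted p = 0.0408, lost in 9 of the 12 fits that left out 1 rat of either group). The highest vehicle reading, 10.11, was that of rat 1, the vehicle rat with a necrosis score of 2. Vim at 48 h read 12.21, 12.75, 12.73, 12.27, 12.59 and 9.61 in dosed rats. Rat 6, the low one and the only one of the 6 with a necrosis score of 0, lay below the vehicle range of 10.01 to 11.15, and Timp2 (8.87, the others 10.07 to 10.72) and Postn (4.55, the others 8.25 to 9.67) were low in it too. Without dosed rat 6, 17 members were higher at 48 h, and without dosed rat 3, 7. At 6 h, 5 were higher and 0 lower without dosed rat 6, whose array had few dim probe sets (7.02% of them under a signal of 16, median of all arrays 14.9%), as had that of vehicle rat 6 (4.25%).

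Below the highest dose the counts ranged from 0 to the 32 members of thioacetamide 50 mg/kg at 48 h given above. N-Nitrosomorpholine at 50 mg/kg had 6 members higher and 3 lower at 6 h (16.9% and 16.4% of all genes), 2 and 7 at 24 h (19.6% and 12.4%) and 10 and 2 at 48 h (10.4% and 6.92%), and at 10 mg/kg 0 and 2 at 6 h (4.93% and 4%). At 50 mg/kg Col6a1 was higher at 6 h (0.41), lower at 24 h (-0.32) and higher at 48 h (0.44). Thioacetamide at 15 mg/kg had 0 and 2 at 6 h (8.33% and 4.81%), 0 and 4 at 24 h (9.15% and 5.28%) and 2 and 2 at 48 h (5.54% and 3.37%), and at 50 mg/kg 4 and 1 at 6 h (10.7% in each direction). 1,2-Dichlorobenzene at 150 mg/kg had 1 and 0 at 6 h (6.72% and 6.97%) and 1 and 7 at 24 h (13.9% and 9.58%). 1,4-Dichlorobenzene had 0 and 1 at 15 mg/kg (0.506% and 1.41%) and 1 and 1 at 150 mg/kg (1.32% and 1.58%), both at 6 h. Diquat dibromide had 0 and 1 at 20 mg/kg and 6 h (5.54% and 6.33%), 2 and 0 at 10 mg/kg and 24 h (2.03% and 1.39%) and 2 and 0 at 20 mg/kg and 48 h (0.183% and 0.0844%). Galactosamine had 1 and 0 at 100 mg/kg and 6 h (4.71% and 9.52%), and monocrotaline 0 and 2 at 10 mg/kg and 6 h (1.77% and 1.3%). In the remaining lower dose groups 0 members were called by limma, and 0 to 8 had an unadjusted p under 0.05.

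Whether the change at 48 h differed from that at 6 h was tested in each compound at the highest dose given at all 3 times. The difference was positive for 30 members and negative for 1 after galactosamine (25% and 13.5% of all genes), 28 and 2 after thioacetamide (29.4% and 15.1%), 22 and 2 after bromobenzene (16.8% and 9.93%) and 19 and 5 after N-nitrosomorpholine (24.9% and 15.8%). After 1,2-dichlorobenzene 1 was positive and 9 negative (12.5% and 7.15%) and after 1,4-dichlorobenzene also 1 and 9 (9.52% and 7.66%). Monocrotaline 50 mg/kg gave 11 and 1 (12.5% and 11.9%), 6 and 1 without the vehicle rats numbered 2, and diquat dibromide 5 and 3 (11% and 5.35%), 2 and 3 after centring, with 5 called in all without the dosed rats numbered 2 or 3 or the vehicle rats numbered 6. With day as a fixed term the galactosamine count fell from 31 to 4 (Col1a2, Col5a2, Postn and Tagln), Col1a1 being at 2.38 (adjusted p = 0.215) and Col3a1 at 1.32 (adjusted p = 0.105), and the 1,4-dichlorobenzene count from 10 to 0 by limma. The counts of N-nitrosomorpholine and 1,2-dichlorobenzene were then 19 and 10, and for the other 4 compounds this fit could not be made.

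Glycoproteins, crosslinking enzymes and cytoskeletal genes were among the largest positive differences in several compounds. After galactosamine Postn (5.86), Tagln (5.15), Tnc (4.93), Loxl1, a lysyl oxidase paralog (4.90), and Vim (4.32) had the largest positive differences, and Col18a1 (-2.47) the 1 negative. After thioacetamide Tnc (6.09), Loxl1 (4.85), Tagln (4.17), Vim (3.99) and Lox (3.50) led, with Col18a1 (-3.05) and Fn1 (-0.45) negative, Fn1 at 0.32 after quantile normalization. After bromobenzene Postn (4.68), Col1a1 (3.61), Vim (3.58), Loxl1 (3.45) and Col1a2, the second chain of type I collagen (3.26), led. After N-nitrosomorpholine Vcan (6.00), Vim (3.57), Tnc (3.41), Loxl1 (2.78) and Des (2.15) led, and Col14a1 (-1.67), Bgn, the proteoglycan biglycan (-1.17), and Sparc (-0.75) were lowest. The 1,2-dichlorobenzene differences were led by falls of Col3a1 (-2.28), Col14a1 (-2.07), Col6a2 (-2.02), Bgn (-1.49) and Col18a1 (-1.47), with Col4a1 alone positive (1.44). Those of 1,4-dichlorobenzene were led by Col3a1 (-1.02) and Timp2 (-0.93), with Loxl1 positive (2.11). With the mean of all its probe sets Timp2 was at -0.42 (adjusted p = 0.242). The dim gene Loxl1 had its highest 6 h vehicle mean in this compound, 6.76 against a median of 5.34 over the compounds. Vehicle rats 1 and 4 of that group had arrays with few dim probe sets (5.32% and 7.99%). After monocrotaline 50 mg/kg, Fbn1 (1.47), Col4a1 (1.10), Des (1.03), Fn1 (1.02) and Lamc1 (0.94) were positive and Col6a2 (-2.09) negative. After diquat dibromide Col1a2 (1.19), Fbn1 (1.15), Sparc (1.14) and Col5a2 (0.98) were positive and Lamc1 (-1.12), Timp3 (-1.10) and Bgn (-0.55) negative.

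From 24 h to 48 h, the step in which bromobenzene collagens turned, 19 members had a higher change at the later time and 2 a lower one after bromobenzene (11.2% and 8.09% of all genes), 22 and 1 after N-nitrosomorpholine (12.1% and 11.3%), 20 and 2 after thioacetamide (13.5% and 8.5%), 12 and 1 after galactosamine (8.16% and 5.6%) and 6 and 0 after diquat dibromide (2.53% and 3.24%). The counts were 7 and 1 after 1,4-dichlorobenzene (9.9% and 11.4%), 3 and 1 after 1,2-dichlorobenzene (9.08% and 4.41%) and 2 and 0 after monocrotaline 50 mg/kg (2.24% and 2.25%). With day as a fixed term, an alternative chosen after seeing the data, 20 members were called after bromobenzene and 16 after thioacetamide, but 8 after N-nitrosomorpholine, 2 after 1,2-dichlorobenzene, 1 after galactosamine and 0 by limma after 1,4-dichlorobenzene or monocrotaline. The diquat dibromide difference could not be fitted with day. Col1a1 gained 4.64 ± 0.54 after bromobenzene, 2.94 ± 0.47 after galactosamine, 2.68 ± 0.44 after thioacetamide and 1.57 ± 0.47 after diquat dibromide, all called. In the fit with day it was at 4.44 after bromobenzene and 2.68 after thioacetamide, both called, and at 1.28 after galactosamine (adjusted p = 0.681). Its difference was 0.81 ± 0.37 after N-nitrosomorpholine (adjusted p = 0.117), 0.14 ± 0.79 after 1,2-dichlorobenzene (adjusted p = 0.945), 0.88 ± 0.44 after 1,4-dichlorobenzene (adjusted p = 0.161) and 1.33 ± 0.45 after monocrotaline 50 mg/kg (adjusted p = 0.0781), none of them called. A fall at 24 h followed by a rise at 48 h, each called, was found at the highest dose only for the 4 bromobenzene members and for Col5a1 and Nid1 after N-nitrosomorpholine. Galactosamine had a rise of Col1a1 and Col3a1 with no called fall before it, and the dichlorobenzenes a fall with no called rise after it.

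Rats of 1 group could differ in necrosis, which allowed a comparison at equal dose and time. In 28 groups that held both rats with and rats without necrosis (136 arrays, 63 of them necrotic), among them the diquat dibromide vehicle groups, the contrast of a score of at least 1 with 0, blocked by compound, dose and time, called 23 members higher and 2 lower in necrotic rats, against 16.6% and 14.4% of all genes. The median was 0.27. Vcan was higher by 0.83 ± 0.16 (adjusted p = 4.67e-06), Vim by 0.73 ± 0.09 (adjusted p = 2.18e-12), Lox and Tagln by 0.55 each, Tnc by 0.52 and Col4a1 by 0.47 ± 0.06 (adjusted p = 3.16e-11). Col18a1 (-0.18 ± 0.05, adjusted p = 0.000657) and Fn1 (-0.09 ± 0.03, adjusted p = 0.011) were lower. Col1a1, at 0.11 ± 0.11 (adjusted p = 0.479), and Col3a1, at -0.04 ± 0.05 (adjusted p = 0.667), were not called. Without diquat dibromide 8 members were higher and 1 lower, and without galactosamine 14 and 1. In the same contrast 7 of 9 macrophage markers and 3 of 5 neutrophil markers were higher and 5 of 11 hepatocyte markers lower, and their part in the result was not tested. Several of the groups with the strongest changes had scores of 4 in every rat and so did not enter this contrast.

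**Figure D5:**
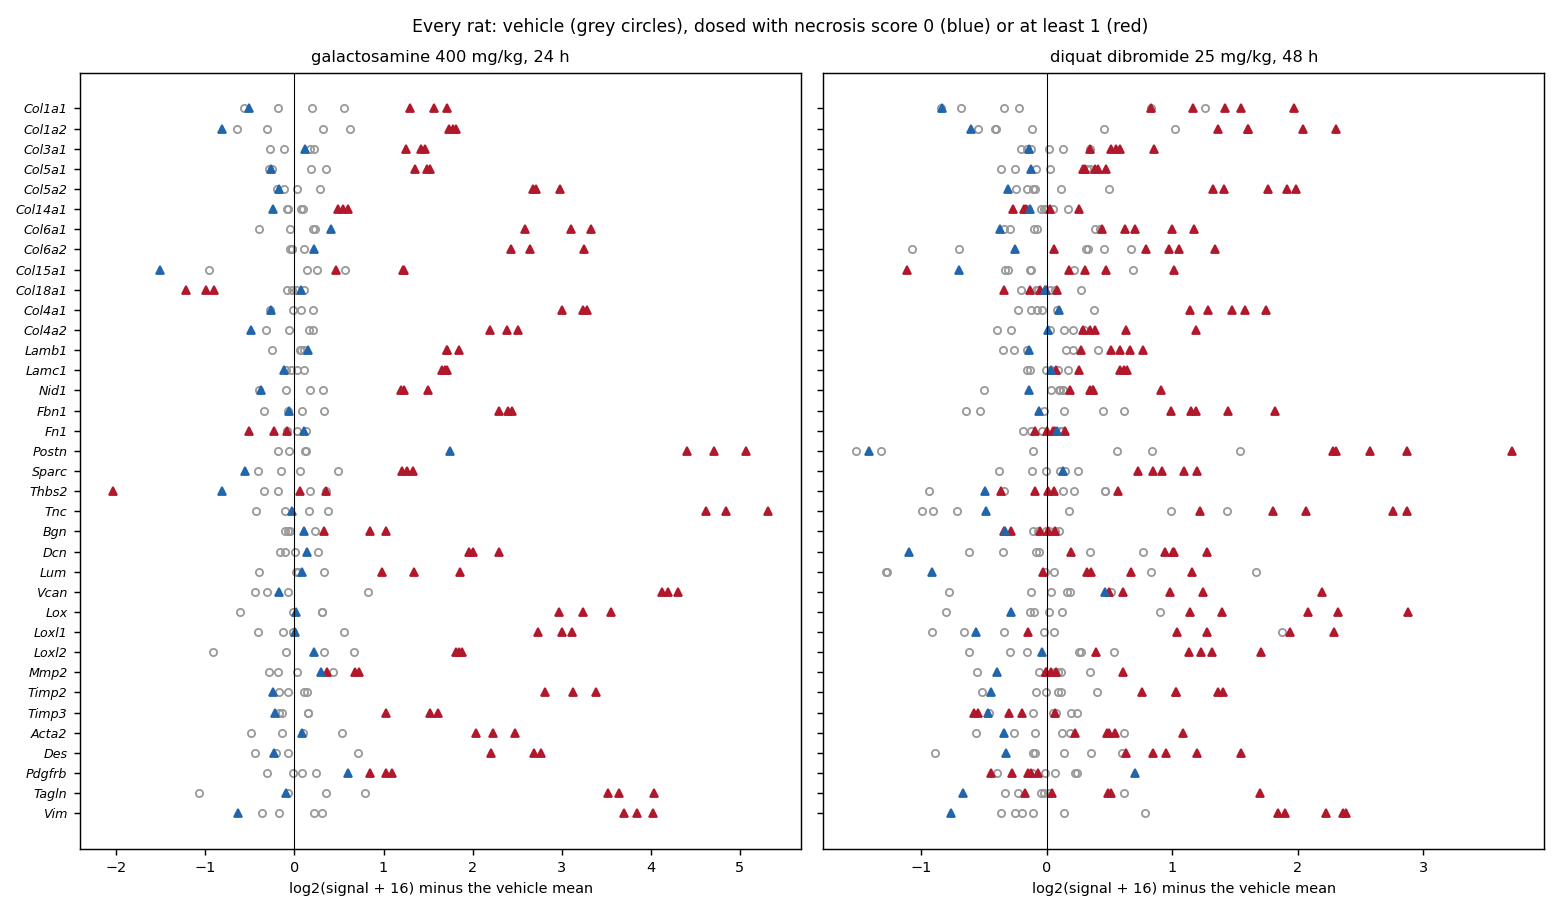
Log2(signal + 16) minus the vehicle mean for the 36 members (lines) in each rat after galactosamine 400 mg/kg at 24 h (left) and diquat dibromide 25 mg/kg at 48 h (right); grey circles are vehicle rats, and triangles dosed rats with a necrosis score of 0 (blue) or at least 1 (red). In each group 1 rat is blue, rat 2 on the left with Vim at 9.51 and rat 6 on the right with Vim at 9.61, and for most members it lies among the vehicle rats.

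A single probe set stood for each gene, and 20 members had 26 further probe sets. Each called value of those members at the highest dose was paired with every further probe set of its gene, which gave 285 pairs. Values of genes with several further probe sets, such as Vcan and Timp3, were therefore counted repeatedly. In 259 pairs the other probe set moved the same way, and in 5 the opposite way by over 0.5. Of these 5, 3 were of Mmp2, a gelatinase, and 1 each of Col6a2 and Pdgfrb, the platelet-derived growth factor receptor of stellate cells. With the mean of all probe sets, Pdgfrb at 24 h after N-nitrosomorpholine went from -0.82 to 0.15, and the 48 h minus 6 h difference of Mmp2 after that compound from 0.70 to -0.14. Of the 393 called values of all members at the highest dose, 37 lost their call with that mean. Among them was Timp2 at 24 h after bromobenzene (0.26, adjusted p = 0.463) and diquat dibromide (0.24, adjusted p = 0.421). Timp2 at 48 h after diquat dibromide also lost its call (0.58, adjusted p = 0.0553).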

How the data were processed

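Liver RNA of 318 dosed and 100 vehicle rats was measured on 1 rat expression array each. The authors deposited log2 values of MAS5 signals (MAS5 per the submitters' processing notes, its version not given in the sources used here), scaled on each array to the same mean after trimming 2% of probe sets. These were returned to signals and analysed as log2(signal + 16), so changes of dim genes are understated. Probe sets with 1 symbol in the array annotation were kept, 1 per gene by the highest mean signal, which gave 14217 genes. Array medians ran from 6.525 to 7.782, and the number of arrays limits the precision.

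Each compound was fitted on its own in limma (version 3.58.1, R version 4.3.3) with 1 coefficient per dose and time, eBayes with a trend and Benjamini-Hochberg adjustment over all genes of a contrast. Genes were called at an adjusted p under 0.05. The rats are separate animals. Differences between times and isomers were contrasts of contrasts, and the necrosis contrast was blocked by group. The members, the other lists (collagen processing, stellate activation, quiescent stellate cells and the cell type markers) and the tests were chosen with earlier results of these data known, the members by symbol and with no threshold on their values. Values of every rat were printed in some comparisons for Col1a1, Col3a1 and the most often called member of each other role except Col6a1, and for members with the largest changes. Alternatives changed the pseudocount, the scaling, the filter, the probe set rule, the arrays in the fit and the treatment of the 39 hybridisation days. In leaving out, a rat number was dropped from the dosed or the vehicle groups of a compound at all times together, so each comparison lost 1 array a group, and thioacetamide vehicle at 6 h and 1,2-dichlorobenzene 1500 mg/kg at 48 h held 1 where rat 1 or 2 was dropped, assumed to vary like the other groups. Thbs1 had no probe set under its symbol and was not analysed here.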

Additional observations from a re-analysis of the deposited data

Results flagged for a closer look

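Among 368 sets of values, each of 1 of 8 members in 1 group of 4 to 6 rats, 32 had 1 rat whose gap to the nearest other was past Dixon's critical value, or 8.7%, where chance flags about 1 in 20 such sets. All values are log2(signal + 16). Rat 2 of galactosamine 400 mg/kg at 24 h was the low rat for Col3a1 (12.14), Vim (9.51), Dcn (9.18) and Timp2 (8.70). Rat 2 of 1,2-dichlorobenzene 1500 mg/kg at 24 h had the low Col1a1 (4.59) and the high Vim (12.47) and Timp2 (9.41). Rat 6 of diquat dibromide 25 mg/kg at 48 h had the low Vim (9.61) and Timp2 (8.87). Among other dosed rats, single values stood apart for Col1a1 (7.29) and for Vim (10.95) and Dcn (11.62) after monocrotaline 300 mg/kg at 6 h, in rats 4, 3 and 3. The same held for Col18a1 after thioacetamide 150 mg/kg at 6 h (12.08), Vim after 1,4-dichlorobenzene 1500 mg/kg at 48 h (10.92), Vim (11.98) and Dcn (10.66) after bromobenzene 250 mg/kg at 24 h and Col6a1 after galactosamine 400 mg/kg at 48 h (13.29). It also held for Dcn after N-nitrosomorpholine 300 mg/kg at 6 h (10.18), and for Fn1 after monocrotaline 50 mg/kg at 48 h (14.46), N-nitrosomorpholine 300 mg/kg at 48 h (14.66) and galactosamine 400 mg/kg at 6 h (14.49).

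Among vehicle rats, Col1a1 stood apart in 1 rat each of N-nitrosomorpholine at 6 h (7.44) and 24 h (8.52), Col3a1 in 1 of galactosamine at 6 h (11.95), Col18a1 in 1 of 1,4-dichlorobenzene at 24 h (12.21) and Vim in 1 of 1,2-dichlorobenzene at 24 h (9.73). Fn1 did so in 1 bromobenzene vehicle rat at 6 h (14.04) and at 24 h (14.33), Col6a1 in 1 of diquat dibromide at 24 h (9.02), and Timp2 in 1 each of 1,2-dichlorobenzene at 6 h (8.86), diquat dibromide at 6 h (8.58) and bromobenzene at 48 h (8.87).

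The change differed between 48 h and 6 h by limma for 10 of the 36 members after 1,2-dichlorobenzene (19.6% of all genes) and 10 after 1,4-dichlorobenzene (17.2%). It did so for 24 after bromobenzene (26.7%), 12 after monocrotaline 50 mg/kg (24.4%) and 24 after N-nitrosomorpholine (40.8%). After thioacetamide 30 members differed (44.5%), after galactosamine 31 (38.5%) and after diquat dibromide 8 (16.3%). The change differed between the dichlorobenzene isomers for 2 members at 150 mg/kg and 6 h (9.2% of all genes) and 5 at 24 h (15.2%). At 1500 mg/kg it differed for 10 at 24 h (21.2%) and 8 at 48 h (20.2%). With day as a fixed term, fewer members differed after galactosamine, after 1,4-dichlorobenzene and between the isomers, as given below.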

How the results depend on the processing

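Counts are of members called by limma, first with the settings of the report. A pseudocount of 1 moved 0 of the counts by over 1.5 times. With all arrays in 1 fit, 1,4-dichlorobenzene had 8 for 13 at 48 h, 1 for 2 at 6 h and 5 for 10 in the time difference, galactosamine 2 for 0 at 6 h, monocrotaline 50 mg/kg 1 for 8 at 24 h, 3 for 5 at 48 h and 7 for 12 in the time difference, thioacetamide 0 for 5 at 6 h, and the isomers 3 for 5 at 150 mg/kg and 24 h. With only the groups compared, counts became 1 for 2 (1,2-dichlorobenzene, 6 h), 0 for 2 (1,4-dichlorobenzene, 6 h), 1 for 4 (bromobenzene, 6 h), 5 for 9 (diquat dibromide, 6 h), 0 for 32 (galactosamine, 24 h), 5 for 8 (monocrotaline, 24 h), 3 for 8 (diquat dibromide time difference) and 6 for 10 (isomers, 1500 mg/kg, 24 h). Arrays centred on their median gave 6 for 2 (1,4-dichlorobenzene, 6 h), 2 for 4 (bromobenzene, 6 h), 3 for 8 (monocrotaline, 24 h), 5 for 8 (diquat dibromide time difference) and 3 for 0 (isomers, 1500 mg/kg, 6 h). Quantile normalization gave 1 for 2 (1,4-dichlorobenzene, 6 h), 1 for 0 (galactosamine, 6 h), 5 for 8 (monocrotaline, 24 h) and 1 for 2 (isomers, 150 mg/kg, 6 h). It turned Fn1 from -0.74 to 0.04 (thioacetamide, 48 h), from -0.45 to 0.32 (its time difference) and from -0.45 to 0.38 (galactosamine, 48 h). Centring moved the median of all genes from 0.17 to -0.08 at 24 h after bromobenzene.

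Hybridisation day as a fixed block in the fit of all arrays gave 10 for 20 at 24 h, 3 for 13 at 48 h, 0 for 2 at 6 h and 0 for 10 in the time difference (1,4-dichlorobenzene), 10 for 21 at 24 h and 10 for 16 at 6 h (N-nitrosomorpholine), 0 for 12 (diquat dibromide, 24 h), 19 for 34 at 48 h and 4 for 31 in the time difference (galactosamine), 0 for 8 at 24 h and 3 for 5 at 48 h (monocrotaline) and 18 for 30 (thioacetamide, 24 h). The isomers had 3 for 5 and 1 for 2 at 150 mg/kg and 24 h and 6 h, and 4 for 10 and 2 for 8 at 1500 mg/kg and 24 h and 48 h. This block turned Loxl1 from 1.26 to -0.47 (thioacetamide, 24 h) and Col15a1 from 1.92 to -0.13 (galactosamine time difference). It also turned Col4a2 from 0.63 to -0.09 (diquat dibromide, 24 h), and none of these was then called. For the differences between 48 h and 24 h, chosen after seeing the data, it gave 2 for 4 (1,2-dichlorobenzene), 0 for 8 (1,4-dichlorobenzene), 8 for 23 (N-nitrosomorpholine), 1 for 13 (galactosamine) and 0 for 2 (monocrotaline). Of the contrasts chosen at first, 9 could not be fitted with this block, and thioacetamide was left out of the random block because each of its groups lay in 1 day. Day as a random block gave 2 for 4 (bromobenzene, 6 h) and 5 for 8 (monocrotaline, 24 h), and the comparison within a day 1 for 2 (1,2-dichlorobenzene, 6 h). The mean of all probe sets gave 1 for 2 (1,2-dichlorobenzene, 6 h) and 6 for 10 (its time difference), and a pseudocount of 64 gave 1 for 2 (1,2-dichlorobenzene, 6 h). Without arrays with few dim probe sets the counts were 5 for 9 (diquat dibromide, 6 h), 5 for 8 (its time difference) and 0 for 2 (isomers, 150 mg/kg, 6 h). With only the genes of higher mean signal, fewer members were left: 1 for 2 (1,2-dichlorobenzene, 6 h), 0 for 2 (1,4-dichlorobenzene, 6 h), 13 for 21 (N-nitrosomorpholine, 24 h), 18 for 30 (bromobenzene, 48 h), 19 for 32, 20 for 34, 1 for 0 and 18 for 31 (galactosamine, 24 h, 48 h, 6 h and time difference) and 19 for 33 and 17 for 30 (thioacetamide, 48 h and time difference). The cause of these changes was otherwise not tested. The necrosis count fell from 25 to 9 without diquat dibromide and to 15 without galactosamine.

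Leaving out 1 rat number at a time gave, at 6, 24 and 48 h, 1 to 4, 17 to 22 and 10 to 15 (1,2-dichlorobenzene), 1 to 2, 18 to 21 and 8 to 14 (1,4-dichlorobenzene), 1 to 3, 20 to 22 and 28 to 30 (bromobenzene), 16 to 23, 1 to 8 and 4 to 6 (monocrotaline), 11 to 17, 17 to 21 and 25 to 28 (N-nitrosomorpholine), 2 to 6, 28 to 31 and 32 to 33 (thioacetamide), 0 to 3, 24 to 33 and 33 to 34 (galactosamine) and 5 to 10, 8 to 14 and 7 to 17 (diquat dibromide). The time differences ran from 7 to 11, 9 to 12, 22 to 25, 7 to 10, 21 to 23, 29 to 30, 30 to 32 and 5 to 11 in the same order. The isomer counts ran from 0 to 3, 4 to 6 and 0 to 4 at 150 mg/kg and from 0 to 2, 6 to 11 and 7 to 9 at 1500 mg/kg. No paired analysis was possible because the replicate numbers name rats in accession order and pair none of them. Signals near or under 16 limit Postn, Tnc and Loxl1.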
